A study of Mus musculus with 4 samples.

Results

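Digestive lipases, amylase and other secretory products of pancreatic acinar cells were followed in the stomach of male mice on single-colour microarrays. The group held 9 genes, Pla2g1b, Clps, Pnliprp1, Pnliprp2, Cel, Amy2a5, Reg1, Sycn and Gp2, of 13840 genes that the platform annotation names through a probe with 1 symbol. Each had 1 such probe, and 8 of the 9 had a value on all 4 arrays. The genes were chosen by name, from earlier results on the same arrays in which their signal levels and strain differences were known. Those levels and differences are therefore given as descriptions. Whether each gene passed in a fit over all probes is stated, and nothing is read from it.

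The animals of the first strain were homozygous B6.CAST-17 congenic males, a line whose name places a chromosome 17 segment of CAST origin on a C57BL/6J background. The comparison strain was wild-type C57BL/6J, also male. Both were fed chow and went without food for 4 h before the stomach was taken, and age is not given in the sources used here. Each strain was represented by 2 arrays, each of a pool of equal amounts of RNA from 3 animals, so that 6 animals per strain entered the study and the spread between single animals was not measured. The title of the study concerns variation in Glp1r expression and gastric emptying, and names none of these genes. In whole stomach RNA, more cells of a type and more RNA per cell cannot be told apart.

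Acinar cells of the exocrine pancreas make digestive enzymes, store them in zymogen granules and release them into the duodenum after a meal. Lipases there split dietary fat with the help of a cofactor, colipase, and bile salts, amylase splits starch, and non-enzymatic granule proteins are packed and secreted with them. Chief cells of the stomach are also zymogen-secreting cells and make pepsinogens.

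Of 33012 probes on the array, the congenic pools had a value for 16954 (pool 1) and 16871 (pool 2), and the wild-type pools for 16320 (pool 1) and 16326 (pool 2). The strains were compared over the 13475 probes with a value on all 4 arrays. On these the medians lay between 12.819 and 12.824 on the log2 scale. Some markers of gastric cells were bright in every pool. Atp4a, a subunit of the parietal cell proton pump, read between 19.51 and 19.77, and the chief cell product Chia1, an acidic chitinase, between 20.49 and 20.62. Others were dim or blank. Muc6 of mucous cells read between 9.51 and 10.89, and Lipf of chief cells and Slc26a7 of parietal cells were blank on all 4 arrays. Differences are congenic minus wild type in log2 units, ± the SE of the limma fit, with n = 2 pools per strain throughout. The log base was inferred from the range of the values, and each fold and each linear value rests on it.

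Promoter sequence was available for 8 of the 9 genes from RefSeq (build GRCm38.p6), and 4 are shown because their genes lie at both ends of the range of strain differences. Reg1, Amy2a5 and Cel had the largest differences, and Pnliprp2 had the lowest. Each line holds the 250 bases before the annotated start, on the gene's own strand, 5′ to 3′. Capitals mark 3 short words searched on both strands: CACCTG, an E-box form bound by the acinar factor PTF1, TTTCCC, the core of the TC-box that accompanies it in PTF1 sites, and TATAAA, the TATA box. The windows lie at chr6:78425733-78425982 on the plus strand (Reg1), chr3:113258700-113258949 on the minus strand (Amy2a5), chr2:28563404-28563653 on the minus strand (Cel) and chr19:58759473-58759722 on the plus strand (Pnliprp2).
Reg1: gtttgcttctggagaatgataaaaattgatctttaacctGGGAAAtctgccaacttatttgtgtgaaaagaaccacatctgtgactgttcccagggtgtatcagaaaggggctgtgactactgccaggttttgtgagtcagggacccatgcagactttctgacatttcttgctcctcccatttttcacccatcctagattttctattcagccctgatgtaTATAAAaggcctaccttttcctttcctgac
Amy2a5: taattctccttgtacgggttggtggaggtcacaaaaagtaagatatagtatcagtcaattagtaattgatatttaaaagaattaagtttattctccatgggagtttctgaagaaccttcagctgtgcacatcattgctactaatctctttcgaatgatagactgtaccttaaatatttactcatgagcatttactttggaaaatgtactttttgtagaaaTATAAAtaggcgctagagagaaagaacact
Cel: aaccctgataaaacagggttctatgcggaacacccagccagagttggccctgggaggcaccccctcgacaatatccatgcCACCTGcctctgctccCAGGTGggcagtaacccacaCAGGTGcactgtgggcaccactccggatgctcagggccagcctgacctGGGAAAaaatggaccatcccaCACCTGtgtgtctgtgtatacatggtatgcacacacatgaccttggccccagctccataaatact
Pnliprp2: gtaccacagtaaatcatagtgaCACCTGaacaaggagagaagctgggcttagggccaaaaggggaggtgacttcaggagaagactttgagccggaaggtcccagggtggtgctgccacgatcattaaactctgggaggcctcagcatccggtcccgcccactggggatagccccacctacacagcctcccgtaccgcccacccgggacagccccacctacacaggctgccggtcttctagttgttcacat
The Cel window held 4 E-box words and 1 TC-box word, and the TC-box word, which begins 86 bases before the start, lay within 30 bases of the E-box word that begins at 65. An E-box and a TC-box word this close occurred in 0.950% of 32851 mouse promoter windows of the same length, and in 1 of the 8 windows of the group. Pnliprp2 held 1 E-box word, 228 bases before its start, and Reg1 held 1 TC-box word at 211. Over the group, 2 of 8 windows held the E-box word, against 17.2% of all windows, and 2 of 8 held the TC-box word, against 21.9%. The TATA word stood in 3 of 8 windows, against 12.4% of all windows. It began 30 bases before the start of both Reg1 and Amy2a5, and 32 bases before that of Gp2, which is not shown. These are matches of letters in a window and say nothing of binding.

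All members with 4 values had mean signals above the median of the probes compared, between percentiles 59.9 and 99.5. Pla2g1b and Clps were the brightest, with means over the 4 arrays of 19.78 and 19.70, both at percentile 99.5 of the probes compared. Their values overlapped across arrays, so their order in signal is not resolved. Pnliprp2 followed at 17.40, Amy2a5 at 16.99, Pnliprp1 at 15.41, Sycn at 13.58, Cel at 13.42 and Reg1 at 13.39. By array, Amy2a5 read above Pnliprp2 in both congenic pools and below it in both wild-type pools. The order of Sycn, Cel and Reg1 was not the same on all arrays, since Reg1 was the brightest of the 3 in both congenic pools and the dimmest in both wild-type pools. Signal also depends on each probe's own response, so these levels rank probes and not transcript amounts. At the 90th percentile of the probes compared, a log2 level of 16.08, 4 members were bright (Pla2g1b, Clps, Pnliprp2 and Amy2a5) and 4 were dim (Pnliprp1, Sycn, Cel and Reg1). Dim means below this line only, since these 4 lay between percentiles 59.9 (Reg1) and 85.4 (Pnliprp1). The nearest above the line was Amy2a5 and the nearest below it was Pnliprp1. Gp2, with 2 values, was not placed.

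**Figure D1:**
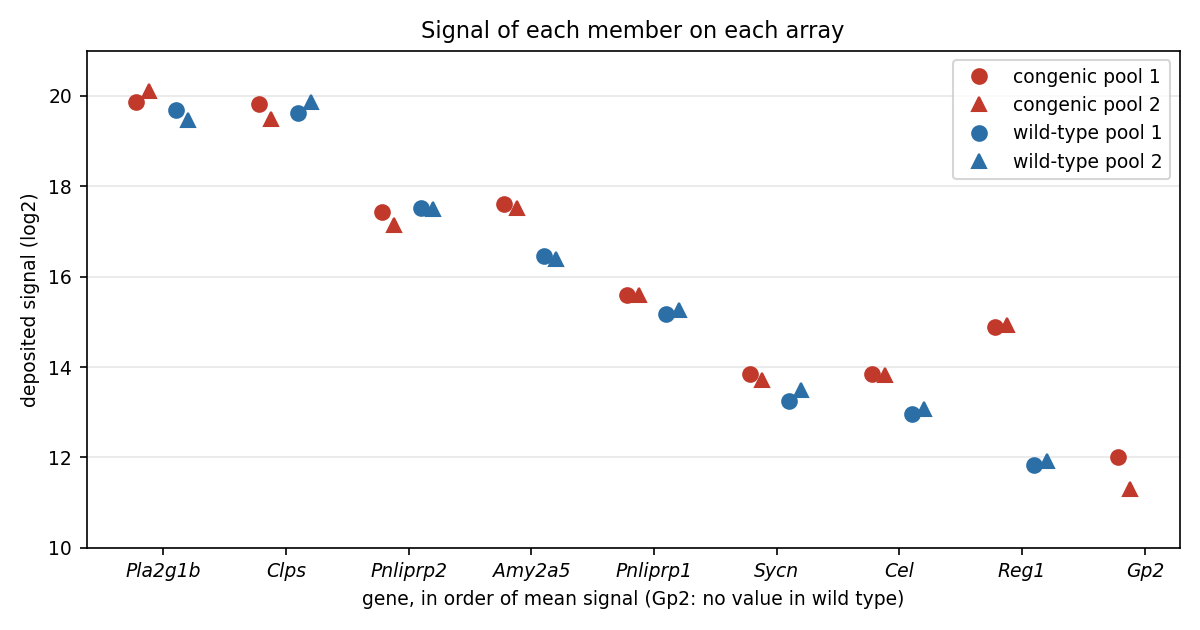
Deposited log2 signal (vertical axis) of the 9 genes on each of the 4 arrays, congenic pools in red left of wild-type pools in blue, circles for pool 1 and triangles for pool 2. The Reg1 points of the strains lie 3.03 units apart on average, those of Clps overlap, and Gp2 has no wild-type point.

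Reg1, Amy2a5 and Cel were higher in the congenic stomachs, with differences many times the gap between pools of a strain. Reg1 is a small lectin-like protein secreted by acinar cells. It read 14.88 and 14.93 in the congenic pools, against 11.83 and 11.93 in the wild-type pools. Both congenic values lay far above both wild-type values, and the difference of 3.03 ± 0.095 was 29.3 times the larger of the gaps between pools of a strain. As a fold this was 8.16. Amy2a5, a pancreatic alpha-amylase, read 17.60 and 17.52 in the congenic pools, against 16.45 and 16.39 in the wild-type pools. Again the strains did not overlap, and the difference of 1.14 ± 0.073 (2.21-fold) was 13.6 times the larger pool gap. Mouse pancreatic amylase genes are near-identical copies, so this value may hold signal of several of them. Amy1, the salivary type amylase, picked for this contrast after its values were seen, read 12.33 and 12.38 in the congenic pools and 12.36 and 12.44 in the wild-type pools (-0.048 ± 0.12).

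Cel is the bile salt-activated lipase, which splits cholesteryl esters and other lipid esters. It read 13.84 and 13.83 in the congenic pools, against 12.96 and 13.07 in the wild-type pools. The strains did not overlap, and the difference was 0.82 ± 0.094 (1.77-fold), or 7.52 times the larger pool gap. Over all probes, these 3 of 8 members passed a limma adjusted p of 0.05, all higher, where 0.475% of the probes compared passed (0.289% higher and 0.186% lower). A difference of at least 1 log2 in either direction was reached by 2 of the 8, Reg1 and Amy2a5, and by 1.14% of the probes compared. Nothing is read from these counts, because the same contrast was known when the genes were chosen. Without congenic pool 1 only Reg1 of the 8 passed. Cel lost the call when congenic pool 1, congenic pool 2 or wild-type pool 1 was left out, while its difference stayed between 0.77 and 0.88.

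The remaining lipid-digesting products differed less. Pnliprp1 encodes a pancreatic lipase relative with little lipase activity of its own. It read 15.60 and 15.59 in the congenic pools, against 15.18 and 15.27 in the wild-type pools. The strains did not overlap, and the difference was 0.37 ± 0.073. Pnliprp2, a relative that also splits galactolipids and phospholipids, read 17.44 and 17.14 in the congenic pools, against 17.53 and 17.49 in the wild-type pools. Both congenic values were the lower ones, at -0.22 ± 0.11, and the congenic pools themselves were 0.30 apart, more than the strains were. It was -0.076 without congenic pool 2 and -0.37 without congenic pool 1. The lipase relatives are next to each other in gene order on chromosome 19, at positions 261 and 262 of 272 measured genes there. Neither of their differences passed over all probes.

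Pla2g1b, the secreted pancreatic phospholipase, which is released as a proenzyme, read 19.86 and 20.10 in the congenic pools, against 19.68 and 19.46 in the wild-type pools. The strains did not overlap, but the nearest pools were close, and the difference of 0.42 ± 0.12 was 1.72 times the larger pool gap. Clps encodes colipase, which anchors pancreatic lipase to fat droplets covered by bile salts. It read 19.82 and 19.50 in the congenic pools, against 19.62 and 19.87 in the wild-type pools. These values overlapped, the difference was -0.086 ± 0.14, and its sign changed when congenic pool 2 (0.076) or wild-type pool 2 (0.040) was left out. Neither gene passed over all probes.

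Of the granule proteins, Sycn encodes syncollin, which lines the inner face of the zymogen granule membrane. It read 13.84 and 13.72 in the congenic pools, against 13.25 and 13.50 in the wild-type pools. The strains did not overlap, and the difference of 0.40 ± 0.12 was 1.62 times the larger pool gap and did not pass over all probes. Gp2 encodes the main glycoprotein of the zymogen granule membrane. It read 12.00 and 11.30 in the congenic pools and was blank in both wild-type pools, so it entered no comparison. A value on both congenic arrays and on no wild-type array was found for 1.27% of all 33012 probes, and the reverse for 0.6%. The rule behind a blank is not given in the sources used here, and a blank was not read as an absent transcript.

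Of the 8 genes with 4 values, the strains' pools did not overlap in 7, with both congenic values above both wild-type values in 6 and below them in 1, Pnliprp2. Over all probes compared, the pools did not overlap in 49.4%, with the congenic pools above in 23.4% and below in 26.1%. The median difference of the 8 was 0.41, beside -0.0020 over all probes compared. The bright members had a median of 0.16 and ranged between -0.22 and 1.14, with 2 positive and 2 negative. The dim members had a median of 0.61 and ranged between 0.37 and 3.03, and all 4 were positive. Over the 1348 bright probes of the whole table the median was -0.020, and over the 12127 others 0.00049. Where the line was set at the 95th percentile, Amy2a5 moved to the dim members and the bright median became -0.086, the value of Clps. At the 75th percentile Pnliprp1 joined the bright members, and their median was 0.37. Bright against dim is a description on 4 genes each, and no test was made of it. The highest value on each of the 4 arrays was the same, 21.248. Whether such an upper limit narrows the differences of the brightest members was not tested.

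**Figure D2:**
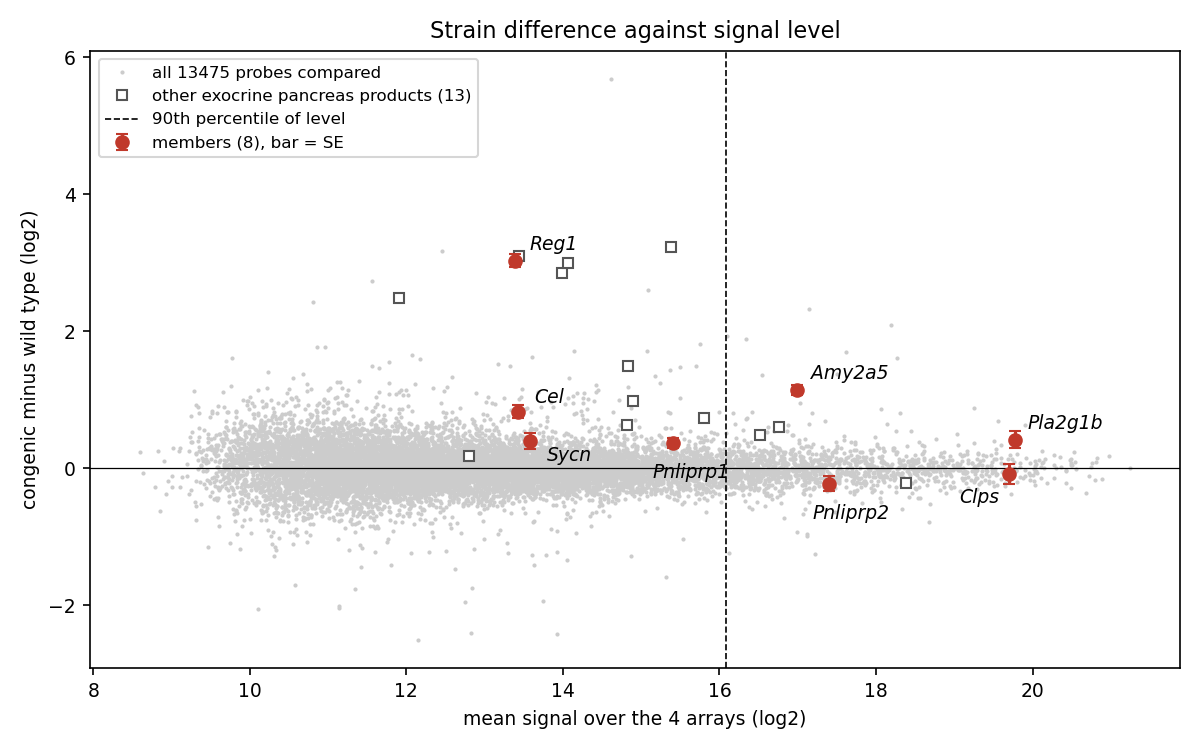
Congenic minus wild-type difference (log2, vertical axis) against mean signal over the 4 arrays (log2, horizontal axis) for all 13475 probes compared (grey), 13 other exocrine pancreas products (squares) and the 8 members with 4 values (red, bars are the SE). Of the 4 members right of the dashed 90th percentile line, Amy2a5 has the largest difference (1.14), while Reg1, left of it, reaches 3.03.

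On a linear scale the members were ordered differently. Linear signal is 2 raised to the deposited value, in ku of 1000 array units. The largest difference in mean linear signal was that of Pla2g1b, at 1041 ku in the congenic pools and 780 ku in the wild-type pools, a difference of 261 ku. Its single pools were at 954 and 1127 ku (congenic) and 838 and 722 ku (wild type), and its log2 difference did not pass. Amy2a5 averaged 194 ku in the congenic pools and 87.5 ku in the wild-type pools, a difference of 106 ku. Reg1 averaged 30.7 ku in the congenic pools and 3.77 ku in the wild-type pools, a difference of 26.9 ku. Cel (6.35 ku) and Sycn (3.40 ku) had the smallest linear differences, and those of Clps (-48.8 ku) and Pnliprp2 (-26.0 ku) were negative. The pools of Clps overlapped, at 925 and 740 ku (congenic) and 805 and 958 ku (wild type). Reg1 led by log2 difference and came behind Pla2g1b and Amy2a5 by linear difference. Linear differences of separate probes also carry each probe's own response.

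The profiles over the 4 arrays, each taken as deviations from the gene's own mean, fell unevenly. By Euclidean distance the closest pair of members was Pnliprp1 and Sycn (0.14), followed by Clps and Pnliprp2 (0.25), and the farthest was Pnliprp2 and Reg1 (3.26). Among 7899 named probes outside the group, the 5 nearest to Reg1 were Ctrb1 (0.19), Cpa1 (0.19), Cela2a (0.24), Cela3b (0.28) and Cpb1 (0.61), which encode a chymotrypsinogen, a pair of carboxypeptidases and a pair of elastases. The 5 nearest to Pla2g1b were Unc5a (0.042), Ikzf4 (0.045), Cyp2c70 (0.055), Slc25a42 (0.056) and Lyzl6 (0.063). None of these 5 passed in limma (adjusted p between 0.250 and 0.449). Both searches cover 4 arrays only and hold the same strain contrast that was known when the members were chosen.

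Most other measured products of the exocrine pancreas likewise had positive differences. Of 13 with 4 values, 7 rose, 0 fell and 6 did not pass in limma over all probes, and 11 had an unadjusted p under 0.05, which 15.8% of all probes compared had. The counts at that unadjusted level in the lists that follow stand beside the same 15.8%. The median of the 13 was 0.99, beside 0.41 for the members. The elastase Cela2a read 17.05 and 16.93 in the congenic pools and 13.72 and 13.80 in the wild-type pools (3.23 ± 0.081, limma adjusted p = 0.00023). Cela3b, Cpa1, Ctrb1 and Cpb1 rose by between 2.49 and 3.09, and the trypsinogens Prss1 and Prss3, which are near-identical copies and uncertain, by 0.99 and 0.73. Of the 7, Prss1, Prss3 and Cpb1 did not pass when either congenic pool was left out, and 4 of 13 then passed. Another 5 of the list's 23 genes with a probe, Spink1, Ctrl, Cuzd1, Reg3g and Reg2, had the pattern of Gp2, with a value in both congenic pools and in no wild-type pool, and 0 had the reverse. Reg2 and Reg3g are relatives of Reg1, and read 10.14 and 10.18 (Reg2) and 11.41 and 10.98 (Reg3g) in the congenic pools. Other relatives in the list did not have this pattern. Reg3b read 10.97 and 11.39 in the congenic pools and 11.45 in wild-type pool 1. Reg3a had a value in wild-type pool 1 only (9.58), and Reg3d was blank on all 4 arrays.

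In lists of genes that act beside these enzymes, none passed over all probes in limma. Of further genes of lipid and starch handling, 0 of 13 passed and 3 had an unadjusted p under 0.05. Of their differences, 3 were positive and 10 negative, and the median was -0.060. Its smallest p-values belonged to Fabp1, an intracellular fatty acid carrier (0.57 ± 0.091, limma adjusted p = 0.0973), Mgll, a monoglyceride lipase (0.32 ± 0.071, limma adjusted p = 0.177), and Gaa, the lysosomal alpha-glucosidase (-0.50 ± 0.11, limma adjusted p = 0.177). For granule and secretory machinery 0 of 11 passed in limma, with 4 at an unadjusted p under 0.05 and a median of -0.0043. Dmbt1, a mucosal glycoprotein, was the highest of these at 0.63 ± 0.12 (limma adjusted p = 0.130), with Rab3d, a zymogen granule GTPase, at -0.38 ± 0.094 and the translocon subunit Sec61b at -0.26 ± 0.074. For transcription factors of acinar cells 0 of 6 passed in limma, with 4 at an unadjusted p under 0.05 and a median of -0.12. Gata4 was at -0.53 ± 0.12, Gata6 at -0.35 ± 0.085 and Bhlha15, a factor of zymogen-secreting cells, at 0.29 ± 0.094. Ptf1a, whose product binds the E-box above, read 10.40 in congenic pool 1, was blank in congenic pool 2, and read 10.66 and 10.70 in the wild-type pools.

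**Figure D3:**
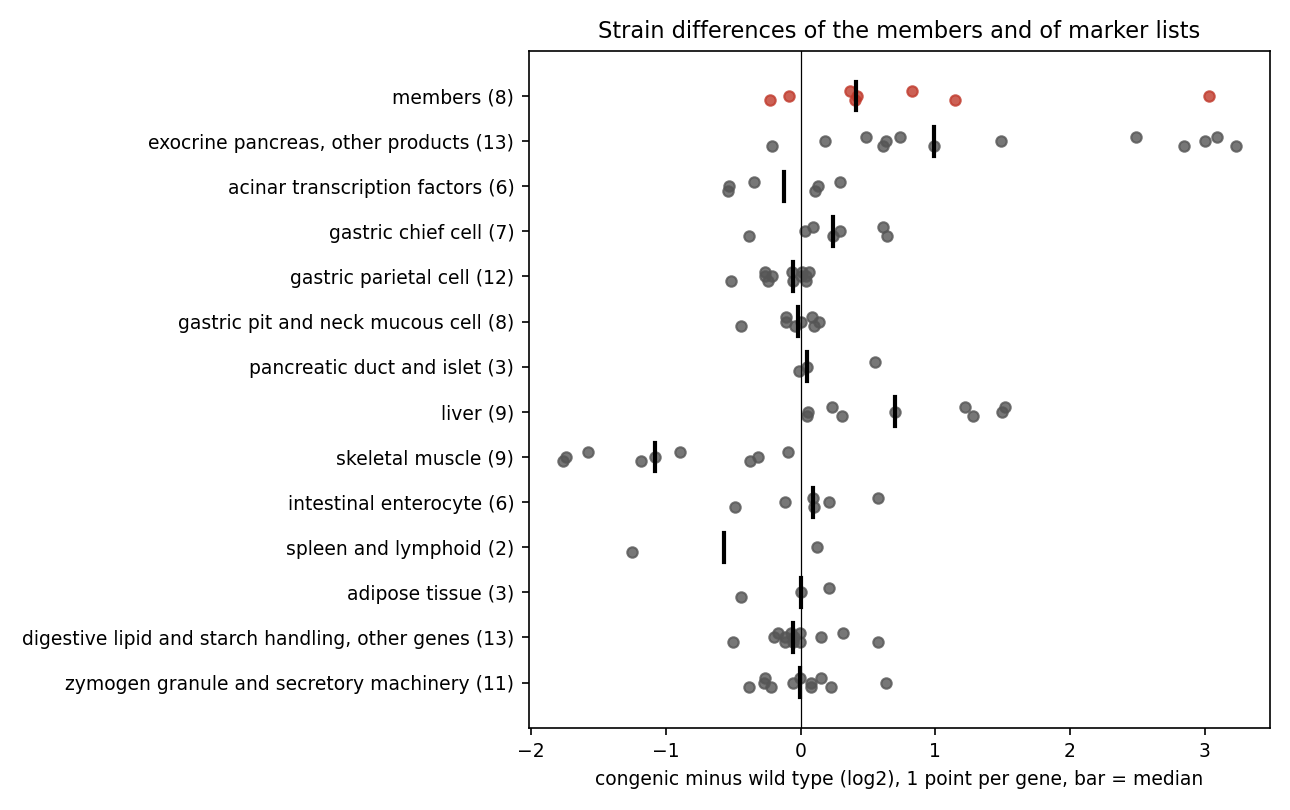
Congenic minus wild-type differences (log2, horizontal axis) of the members and of 13 lists (rows, with the number of genes that had a value on all 4 arrays), 1 point per gene, with the median as a bar. The members spread between -0.22 and 3.03, the other exocrine products reach 3.23, and the skeletal muscle genes all lie below 0.

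Lists of exocrine products and of markers of other cell types gave these values beside those of the members. Summed linear signal of the other exocrine products was 1016 and 1065 ku in the congenic pools and 650 and 722 ku in the wild-type pools. A large part of each sum came from Tmed6, the brightest of the 13 (mean 18.38). It was the only 1 of them with a negative difference (-0.21 ± 0.10). Of pancreatic duct and islet genes 3 of 10 were measured on all arrays, of which 0 passed in limma, with 1 at an unadjusted p under 0.05. Cftr was at 0.55 ± 0.14, Krt19 at 0.050 ± 0.084 and Sox9 at -0.011 ± 0.12, while 5 of 10, among them the insulin gene Ins2, were blank on all 4 arrays. Chief cell genes, of which 0 of 7 passed in limma, with 3 at an unadjusted p under 0.05, summed to 2934 and 3057 ku in the congenic pools and 2149 and 2798 ku in the wild-type pools. Cblif, the chief cell gene for intrinsic factor, was also lowest in wild-type pool 1, and read 20.20 and 20.24 in the congenic pools and 19.02 and 20.14 in the wild-type pools. Of that list Rnase1 (0.61 ± 0.11), which the exocrine list also holds, Rab3d and Bhlha15 had the smallest p-values. Liver genes were positive in 9 of 9, where 6678 of the 13475 probes compared were positive. Of the 9, 5 had an unadjusted p under 0.05, and 2 rose, Alb (1.52 ± 0.15, limma adjusted p = 0.0202) and Hpx (1.50 ± 0.17, limma adjusted p = 0.0298). The summed signal of the 9 was 463 and 434 ku in the congenic pools and 407 and 413 ku in the wild-type pools. Most of it came from Apoa1 (0.055 ± 0.073) and Ttr (0.050 ± 0.077), the brightest of the 9. Ahsg did not pass (1.22 ± 0.16). Alb and Hpx both lost the call when either congenic pool was left out.

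Skeletal muscle genes were negative in 9 of 9, where 6796 of the 13475 probes compared were negative. The summed signal of the 9 was 82.4 and 84.5 ku in the congenic pools and 164 and 172 ku in the wild-type pools. An unadjusted p under 0.05 was reached by 8 of the 9, beside 15.8% of all probes. Of the 9, 3 fell, Acta1 (-1.58 ± 0.070), Myl1 (-1.74 ± 0.16) and Tnnt3 (-1.18 ± 0.13). Without congenic pool 1 the count was 1, Acta1. Of the lymphoid list 2 of 9 genes had 4 values, and 1 had an unadjusted p under 0.05. Cd5 fell (-1.25 ± 0.10, limma adjusted p = 0.00907), a call lost without either congenic pool, while Jchain was at 0.12 ± 0.10. The Cd5 probe was bright, with a mean of 17.22 at percentile 94.9. Cd3e, Cd3g and Cr2 had 1 value each, and Cd79b, Ms4a1 and Ptprc were blank on all 4 arrays. Whether the Cd5 probe follows lymphoid cells was not tested. Cd79a of that list, and Pla2g5 of the lipid and starch list, had the pattern of Gp2, with 10.64 and 10.32 (Cd79a) and 10.69 and 10.53 (Pla2g5) in the congenic pools and blanks in the wild-type pools. In limma 0 of 12 parietal cell genes passed, and 3 had an unadjusted p under 0.05, beside 15.8% of all probes, with a median of -0.057. The counts were 0 of 8 and 0 for pit and neck mucous cell genes (median -0.019), 0 of 6 and 3 for enterocyte genes (median 0.095), and 0 of 3 and 1 for adipose genes (median 0.0054), again in limma. The smallest p-values in these lists belonged to Ezr (-0.51, on chromosome 17), Clic6 (-0.26) and Atp4a (-0.21) among parietal cell genes. Among mucous cell genes they belonged to Aqp5 (-0.11), Muc6 (-0.45) and Capn9 (-0.11). Among enterocyte genes they were Fabp1, Anpep (-0.49) and Apoa4 (0.21), and among adipose genes Fabp4 (-0.45), Plin1 (0.21) and Pnpla2 (0.0054). Whether these markers have a part in the members' differences was not tested.

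By position, Clps was the only member on chromosome 17, the chromosome named in the congenic strain. Gp2 and Sycn lie on chromosome 7, Pnliprp1 and Pnliprp2 on chromosome 19, and Cel, Amy2a5, Pla2g1b and Reg1 on chromosomes 2, 3, 5 and 6. Clps was 128th of 379 measured genes of chromosome 17 in RefSeq order, between Fkbp5 (-0.23 ± 0.16) and Srpk1, a kinase of splicing factors. Srpk1 read 14.83 and 14.78 in the congenic pools and 14.07 and 14.10 in the wild-type pools, and rose by 0.72 ± 0.077 (limma adjusted p = 0.0258). That call was lost without congenic pool 1, congenic pool 2 or wild-type pool 1. Of the 8 nearest measured genes, 4 on each side of Clps and named for their position, Srpk1 was the only one that passed. Whether the Clps probe lies over bases that differ between the strains was not examined.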

How the data were processed

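The deposited table holds 1 log2 value per probe and array, with the log2 scale inferred from the range. How the authors normalized the arrays, and what they left blank, is not given in the sources used here. Labelled cRNA was made from 1 microgram of total RNA, per the labels' protocols. Probes were named through the platform annotation, and chromosomes and gene order came from RefSeq (GRCm38.p6). Strains were compared by a two-sided moderated test (limma 3.58.1, R 4.3.3, variance trend on) over the 13475 probes with 4 values, with Benjamini-Hochberg adjustment and a threshold of 0.05. No pseudocount, filter on dim probes or further normalization was applied. Where a gene had several probes, lists used the brightest. Members and lists were chosen with earlier results of these data known. Named besides the members were list genes that passed, the 3 of smallest p per list and the 5 nearest profiles. Amy1, Chia1, Cblif, Ptf1a, Apoa1, Ttr, Tmed6, blank probes and the neighbours of Clps were named after their values were seen. Alternatives were quantile normalization, the pool number as a block, a level filter, median centring, leaving out each pool, no variance trend, other thresholds and a fit allowing 1 blank. The number of arrays limits precision, and p-values rest on the spread of pools, each of 3 animals. That spread is only partly the gene's own. Each SE and p-value drew on 2 residual degrees of freedom and at least 3.97 prior ones, taken from all probes.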

Additional observations from a re-analysis of the deposited data

How the results depend on the processing

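The count of 64 probes past the threshold (39 higher) was 35 with the pool number as a block, 20 without the variance trend and 110 at an adjusted p of 0.10, and lay between 15 (without congenic pool 1) and 168 (without wild-type pool 2) when a pool was left out, with 27 without congenic pool 2. Of the members, 3 passed, 2 with the pool number as a block (Cel lost the call), 1 without the variance trend (Reg1), and between 1 and 3 when a pool was left out. The pool numbers did not pair the samples: the differences between pools 1 and 2 of the strains correlated at -0.064 over probes. The median of the bright members was 0.37 with the line at the 75th percentile and -0.086 at the 95th, and lay between 0.14 and 0.19 when a pool was left out. That of the dim members was 0.82 at both other lines, with 3 and 5 genes, and lay between 0.55 and 0.70. The sets of genes differ by construction. The difference of Clps lay between -0.25 and 0.076 when a pool was left out, and changed sign without congenic pool 2 (0.076) and without wild-type pool 2 (0.040). Of 64 member differences recomputed, 2 changed sign, both of Clps. The 64 do not include the fit without the variance trend, in which only Reg1 passed. The cause of the lost calls was not tested. List counts were recomputed as alternatives added after seeing the data. Without the variance trend, the exocrine count was 5, not 7, the liver count 0, not 2, and the muscle count 1, not 3. Alb, Hpx, Myl1, Tnnt3, Cd5, Prss1, Prss3 and Srpk1 lost their calls there. With the pool number as a block the liver count was 1 (Alb). At an adjusted p of 0.10 the muscle count was 5. Signal over background is unknown here.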
